A study of Mus musculus with 24 samples.

Results

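Heat shock and chaperone genes were followed in cultured mouse helper T cells treated with inhibitors of transcription. The genes were 10 in number, taken by name: Hspa1a, Hspa1b, Hspa8, Hsph1, Dnajb1, Hsp90aa1, Hsp90ab1, Hspd1, Hspe1 and Cryab. Probes were matched to 9 of these 10 genes, out of 20022 genes with a named probe, and no probe was matched to Hspa1b, which is not analysed here. Th1 and Th2 cells, the helper T cell types that make interferon-γ and interleukin-4, respectively, were differentiated in vitro from female C57BL/6 mice. They received the vehicle DMSO, JQ1 at 50 or 500 nM (an inhibitor of the BET bromodomain proteins, which bind acetylated histones), or Flavopiridol at 1 or 10 µM (an inhibitor of P-TEFb, the kinase that releases paused RNA polymerase II into elongation). Cells were left unstimulated or reactivated. The time was 6 hr with either drug, and a 24 hr time was added for Th1 cells with DMSO or 500 nM JQ1. For the Th2 DMSO arrays the labels give both 6 hr and 24 hr, so that their time is not settled. They were the control of every Th2 comparison of a drug with DMSO, where drug and time may therefore not be told apart.

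Each of the 24 conditions (14 of Th1 and 10 of Th2 cells) had 1 two-colour array and no replicate. The T cell RNA carried Cy3, and RNA of naive CD4+CD62L+CD25-CD44lo T cells carried Cy5 on every array, so that a level is given here as log2 of Cy3 over Cy5, with 0 meaning the level of naive cells. Tests used 4 contexts (Th1 or Th2, unstimulated or reactivated) in place of replicates, with the context as a block, and an adjusted p comes from limma with Benjamini-Hochberg adjustment over all genes tested. The p-values therefore set a difference against how unevenly it repeated over the contexts. The labels do not say whether arrays came from separate cultures. The arrays lay on 3 slides. Reactivated and unstimulated cells of the same treatment shared a slide, as did JQ1 and DMSO in Th1 cells, while no Flavopiridol array shared a slide with its own DMSO control. Both slides with Flavopiridol arrays also held 4 arrays without it, of the other cell type or time. Of these 8, 6 carried JQ1 (4 of Th2 cells, and 2 of Th1 cells at 24 hr) and 2 DMSO, and their levels are given beside the Flavopiridol results. The same 4 DMSO arrays served the JQ1 and the Flavopiridol comparisons.

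Between 35.4% and 41.5% of probes were well above background in Cy3 on the Flavopiridol arrays, against 43.8% to 52% on the others, and 48.1% to 53.8% in the naive reference on all arrays. The labelled cell types were checked with marker genes. All 5 T cell markers with a probe were above background on 24 of 24 arrays. Ifng reached 8.59 in reactivated Th1 (6 hr) and 6.20 in reactivated Th2 cells given DMSO, and Il4 3.07 and 8.02, while Il1rl1, listed as a Th2 marker, was higher in the Th1 cells, at 5.51 against 3.91. Of the defining markers of other cells, Lyz2 (myeloid) and Klrb1c (NK cell) were above background on 0 arrays. In a bulk sample fewer cells of a type and less RNA per cell cannot be told apart.

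Heat shock proteins hold other proteins in a soluble, foldable state. HSP70 proteins bind exposed hydrophobic stretches in cycles of ATP hydrolysis driven by J-domain co-chaperones and reset by nucleotide exchange factors, and HSP90 proteins finish the folding of kinases and receptors. Many of the genes carry heat shock elements, inverted repeats of a short unit bound by the factor Hsf1, and the stress-inducible HSP70 genes are a classic case of promoters at which paused polymerase is released by P-TEFb. In T cells, activation is accompanied by growth and by a large rise in protein synthesis.

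Promoter sequences of members are shown to let the expression data be read beside the elements upstream of them. RefSeq start sites on GRCm38.p6 were listed for 6 of the 10 genes, Hspa1a, Hspa1b, Hsph1, Dnajb1, Hspd1 and Hspe1. Hspd1 and Hspe1, which encode the mitochondrial chaperonin Hsp60 and its lid Hsp10, run in opposite directions, with 215 bases between the Hspe1 start and the first listed Hspd1 start, and the interval between them (chr1:55087933-55088147, plus strand, reading toward Hspe1) is given first. The other windows are the 250 bases before the start of Hspa1a (chr17:34972157-34972406, minus strand) and before the upstream start of Hsph1 (chr5:149636337-149636586, minus strand). Capitals mark matches to 2 inverted units, GAANNTTC or TTCNNGAA, which read the same on both strands.
Hspd1 and Hspe1 interval: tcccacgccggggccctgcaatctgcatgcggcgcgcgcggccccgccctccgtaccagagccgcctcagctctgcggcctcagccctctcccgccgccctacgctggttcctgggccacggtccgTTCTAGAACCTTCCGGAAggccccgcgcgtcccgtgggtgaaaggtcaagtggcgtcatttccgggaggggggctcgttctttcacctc
Hspa1a: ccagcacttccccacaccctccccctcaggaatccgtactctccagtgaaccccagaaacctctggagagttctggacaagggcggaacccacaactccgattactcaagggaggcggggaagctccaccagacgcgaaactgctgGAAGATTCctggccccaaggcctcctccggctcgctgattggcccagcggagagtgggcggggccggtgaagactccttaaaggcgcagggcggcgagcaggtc
Hsph1: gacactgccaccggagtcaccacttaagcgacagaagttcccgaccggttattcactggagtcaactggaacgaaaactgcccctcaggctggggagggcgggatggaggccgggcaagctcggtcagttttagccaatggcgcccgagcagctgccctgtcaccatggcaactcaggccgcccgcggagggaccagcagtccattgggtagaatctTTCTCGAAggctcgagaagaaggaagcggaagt
The 3-unit element, GAANNTTCNNGAA or TTCNNGAANNTTC, contains 2 overlapping 2-unit matches. It occurred in 0.466% of 32851 mouse promoter windows of 250 bases and a 2-unit match in 12.8%. The Hspd1 and Hspe1 interval held 2 overlapping 3-unit matches in 1 stretch, at -89 to -72 from the Hspe1 start. A second listed Hspd1 start lies beyond the Hspe1 start, and the 250 bases before it held no match. Hspa1a held 1 pair of units, at -104 to -97 from its start, and Hsph1 held 1 pair, at -33 to -26 from its upstream start. Neither Dnajb1 window held a match to these letters. The 250 bases before Hspa1a and Hspa1b were 98.8% identical by position, and their coding sequences are known to be almost alike, so that the Hspa1a probe may also read Hspa1b.

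Flavopiridol lowered Hspa8, Dnajb1 and Hsp90ab1 and raised Cryab, at both doses. Among all genes 33.5% were lower and 15.4% higher at 10 µM, shares that depended on the scaling. Reactivation without drug raised Hsph1, Hspd1, Hspe1, Hsp90aa1, Hsp90ab1 and Cryab. 500 nM JQ1 raised Hspa1a, Dnajb1, Hsp90aa1 and Hsp90ab1 and lowered Hspe1. The shares over all genes on reactivation and with JQ1 stand beside those results. The levels of all members on all arrays are plotted by treatment.

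**Figure D1:**
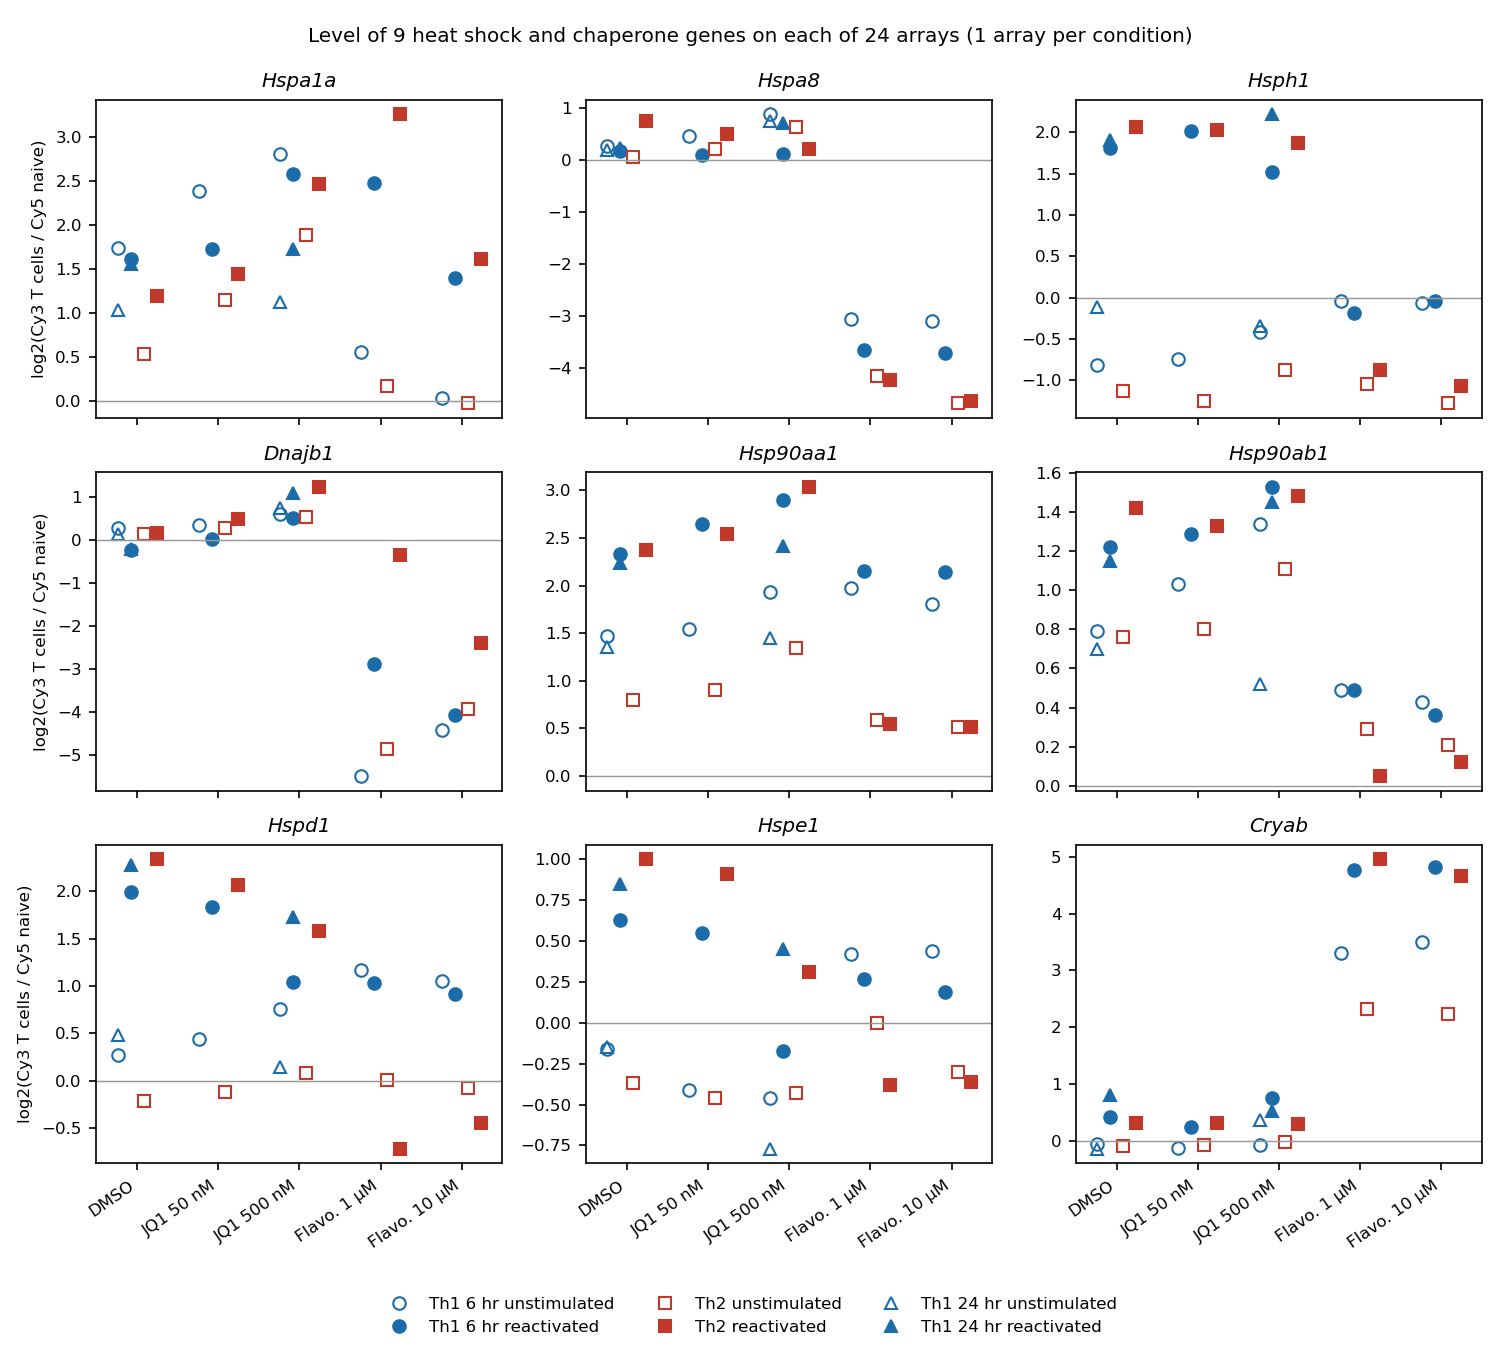
Log2 of the Cy3 T cell signal over the Cy5 naive cell signal for 9 genes, 1 point per array, by treatment, with open symbols for unstimulated and filled symbols for reactivated cells (circles, Th1 at 6 hr; triangles, Th1 at 24 hr; squares, Th2). Hspa8 lies between -4.69 and -3.07 on the 8 Flavopiridol arrays and between 0.07 and 0.89 on the other 16, and Cryab lies between 2.23 and 4.96 on the former and between -0.14 and 0.80 on the latter.

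At 10 µM Flavopiridol, 3 of the 9 members tested were lower than with DMSO and 1 was higher, where 33.5% of all 12427 genes tested were lower and 15.4% higher. At 1 µM the count was again 3 lower and 1 higher, with 35.4% and 16.2% of all genes. At 10 µM, median centring in place of loess called 8290 genes lower and 284 higher, and the spike-in shift, which sets the arrays to equal signal of added control RNA, 7132 and 273, with 3 members lower and 1 higher after the former and 5 and 1 after the latter. The median difference over the 9 members at 10 µM was -0.73 on the log2 scale, against -0.22 over all genes. In the separate pairs of 1 Flavopiridol and 1 DMSO array, 20 of 36 member differences at 10 µM exceeded 2-fold in either direction, against 31.0% of all genes, and 19 of 36 did at 1 µM, against 33.9%. The summed Cy3 signal of the 4 myeloid markers lay between 13.51 and 14.23 (log2) on unstimulated DMSO arrays. It lay between 12.15 and 12.91 on unstimulated Flavopiridol arrays. Among these markers, Lyz2 was above background on 0 arrays and Cd14 on 3. The 2 that could be tested went opposite ways at 10 µM, with Itgam called lower and Csf1r higher. The summed signal of 2 erythroid genes was 7.53 to 7.72 on these DMSO arrays and 8.26 to 8.73 on these Flavopiridol arrays. Of 4 B cell markers 3 fell at 10 µM. Their part in the result was not tested. On the 2 slides with Flavopiridol, Hspa8 lay between 0.20 and 0.76 on the 8 arrays without the drug and between -4.69 and -3.07 on the 8 with it, and Cryab between -0.14 and 0.80 and between 2.23 and 4.96. The ranges of Dnajb1 (-0.21 to 1.24 and -5.48 to -0.35) and Hsp90ab1 (0.52 to 1.48 and 0.05 to 0.49) did not overlap there either, while those of the other 5 members did.

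Hspa8 encodes Hsc70, the constitutive HSP70 of the cytosol. Its brightest probe read 0.27 in unstimulated and 0.18 in reactivated Th1 cells at 6 hr with DMSO, and 0.07 and 0.76 in Th2 cells. With 10 µM Flavopiridol the same 4 contexts read -3.11, -3.72, -4.69 and -4.65, and with 1 µM -3.07, -3.66, -4.17 and -4.24. The Flavopiridol arrays did not overlap the others, and the 4 Th2 arrays lay below the 4 Th1 arrays. The fitted difference at 10 µM was -4.36 ± 0.30 (SE), a 20.6-fold lower level (limma adjusted p = 2.22e-05), and at 1 µM -4.10 ± 0.30 (limma adjusted p = 1.68e-05). The size depended on the probe. The 3 probes of Hspa8 had median differences of -4.33, -3.75 and -2.60 over the 4 contexts at 10 µM, in order of falling brightness, all on the same side.

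Dnajb1 encodes Hsp40, the J-domain partner that delivers clients to HSP70. With DMSO its level was 0.28 and -0.23 in unstimulated and reactivated Th1 cells at 6 hr and 0.15 and 0.16 in Th2 cells. With 1 µM Flavopiridol it was -5.48 and -4.86 in unstimulated Th1 and Th2 cells, but -2.88 and -0.35 in the reactivated cells. With 10 µM it was -4.41 and -3.93 in unstimulated and -4.07 and -2.38 in reactivated cells. The loss was thus largest in unstimulated cells at 1 µM, and the reactivated Th2 cells at 1 µM came within 0.51 of their DMSO array. Over the 4 contexts the difference was -3.79 ± 0.72 at 10 µM (limma adjusted p = 0.00269) and -3.48 ± 0.72 at 1 µM (limma adjusted p = 0.00365), with all 4 contexts lower at each dose.

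Cryab encodes αB-crystallin, a small heat shock protein that binds unfolded proteins without ATP. It stood near the naive level without Flavopiridol, from -0.14 to 0.80 on 16 arrays with a median of 0.27. With 1 µM Flavopiridol it read 3.30 and 2.33 in unstimulated Th1 and Th2 cells and 4.77 and 4.96 in reactivated cells. With 10 µM the same contexts read 3.50, 2.23, 4.82 and 4.66. The 8 Flavopiridol arrays were above all others, and among them the 4 reactivated arrays were above the 4 unstimulated ones. The fitted difference was 3.65 ± 0.35 at 10 µM, a 12.6-fold higher level, and 3.69 ± 0.35 at 1 µM (limma adjusted p = 9.13e-05 and 6.18e-05). The gene was dim in naive cells. Its Cy5 signal was 7.45 to 7.77 (log2) on the 4 reactivated Flavopiridol arrays and 6.86 to 7.24 on the other 20, so that the reference itself was not level for this probe. The size depended on the scaling, with a difference at 10 µM of 2.30 ± 0.37 after median centring, 2.95 ± 0.40 after the spike-in shift and 4.01 ± 0.46 on Cy3 alone. The other Cryab probe was not well above background in either channel on any array and gives no level.

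Hsp90ab1, the constitutive cytosolic HSP90, fell by less. Its levels with DMSO were 0.79 and 1.22 in unstimulated and reactivated Th1 cells at 6 hr and 0.76 and 1.42 in Th2 cells. They were 0.43, 0.36, 0.21 and 0.12 with 10 µM Flavopiridol, below the DMSO array in 4 of 4 contexts. The difference was -0.77 ± 0.18 at 10 µM (limma adjusted p = 0.00753) and -0.72 ± 0.18 at 1 µM (limma adjusted p = 0.00954). The call was lost with median centring, with the Th1 contexts alone and without the reactivated Th1 arrays (limma adjusted p = 0.0792, 0.0765 and 0.0515 at 10 µM), and at 1 µM under the same settings (limma adjusted p = 0.21, 0.108 and 0.0533) and with only those doses fitted (limma adjusted p = 0.0546). Hsp90aa1, its stress-inducible relative, was not called, at -0.50 ± 0.34 (limma adjusted p = 0.259), and its differences ran from 0.33 in unstimulated Th1 to -1.85 in reactivated Th2 cells. Its 4 Th1 levels with Flavopiridol lay between 1.81 and 2.15 and its 4 Th2 levels between 0.52 and 0.59.

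Hspa1a encodes the stress-inducible HSP70. The naive cells gave hardly any signal at its probe, which was well above background in Cy5 on 8 of 24 arrays and in Cy3 on 21, so that its ratios compress low levels. With DMSO it read 1.74 and 1.61 in unstimulated and reactivated Th1 cells at 6 hr and 0.53 and 1.19 in Th2 cells. Unstimulated cells with Flavopiridol read 0.55 (Th1, 1 µM), 0.03 (Th1, 10 µM), 0.17 (Th2, 1 µM) and -0.03 (Th2, 10 µM), and the last 3 were not well above background in Cy3. Set against the lowest measurable signal or the probe's own, the DMSO array was at least 3.22-fold higher in unstimulated Th1 cells at 10 µM, and at least 1.24-fold and 1.47-fold higher in Th2 cells at 1 and 10 µM. Reactivated cells with Flavopiridol read 2.48 and 3.26 in Th1 and Th2 cells at 1 µM, and 1.39 and 1.61 at 10 µM. The 3.26 was the highest of all 24 arrays after loess, but not after the spike-in shift (2.76, against 3.40 in unstimulated Th1 cells with 500 nM JQ1 at 6 hr). Over all contexts no change was called at 10 µM (-0.52 ± 0.44, limma adjusted p = 0.362) or at 1 µM (0.35 ± 0.44, limma adjusted p = 0.53). After a shift of the arrays to equal spike-in signal, which moved the median of all genes from -0.22 to -0.93, Hspa1a and Hsph1 were called lower at 10 µM (-1.22 and -1.80, limma adjusted p = 0.0139 and 0.0318), and Hsph1 was also called after median centring at 10 µM (-2.25, limma adjusted p = 0.0132) and at 1 µM (-2.02, limma adjusted p = 0.0228).

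Hsph1, Hspd1 and Hspe1 gave no call with Flavopiridol at either dose after loess normalization, and the sign of their differences varied between the contexts. Hsph1 encodes Hsp110, a nucleotide exchange factor for HSP70. At 10 µM it differed from DMSO by 0.74 in unstimulated and -1.85 in reactivated Th1 cells and by -0.16 and -3.13 in Th2 cells. Hspd1 differed by 0.78, -1.06, 0.14 and -2.79 in the same order, and Hspe1 by 0.60, -0.44, 0.08 and -1.36. In all 3 genes the reactivated contexts were the lower ones, and the test of that difference is given with reactivation.

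**Figure D2:**
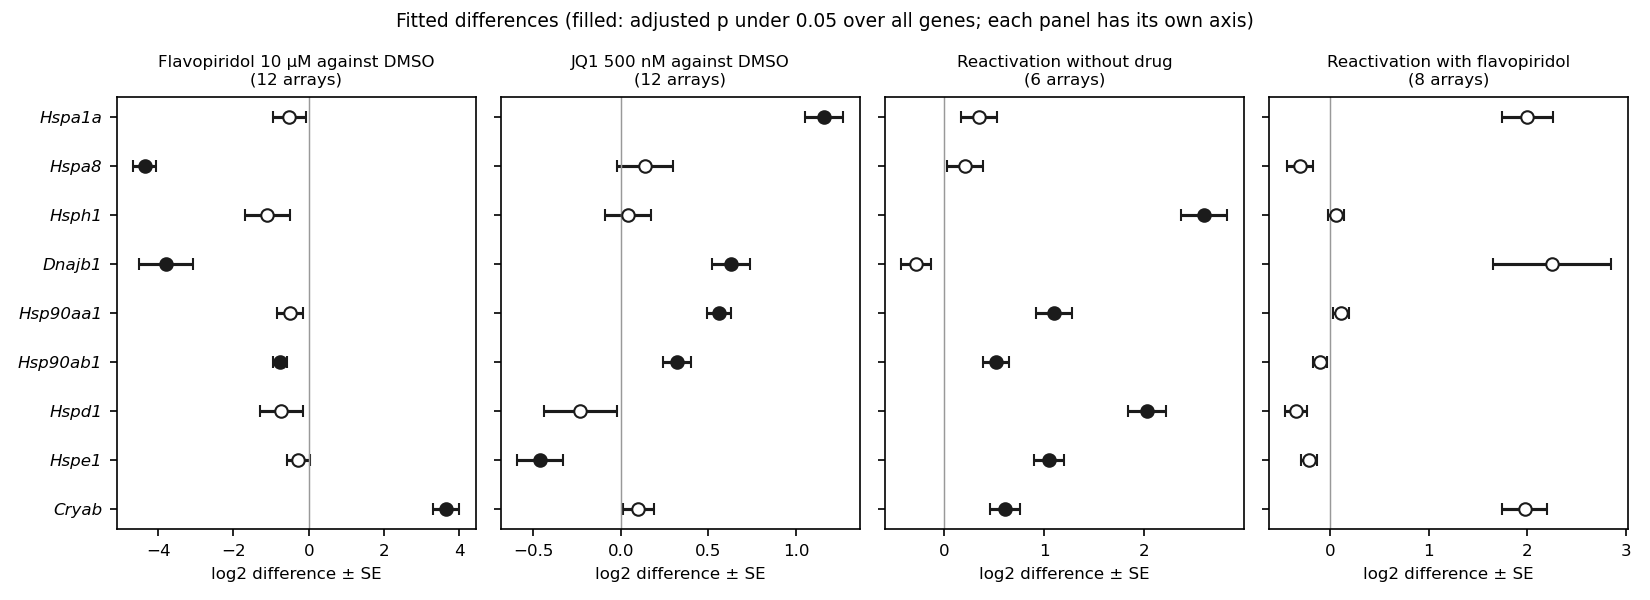
Fitted log2 differences with their standard errors for 9 genes in 4 comparisons (filled points, adjusted p under 0.05 over all genes; panels have separate axes). Hspa8 fell by 4.36 and Cryab rose by 3.65 with 10 µM Flavopiridol, Hspa1a rose by 1.16 with 500 nM JQ1, and Hsph1 rose by 2.60 on reactivation without drug and differed by 0.06 on reactivation with Flavopiridol.

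Reactivation of DMSO cells was compared in 3 pairs of arrays (Th1 at 6 hr, Th1 at 24 hr and Th2). Of 9 members, 6 rose and 0 fell, where 21.9% of 12528 genes rose and 29.0% fell. Hsph1 rose the most. It read -0.81, -0.11 and -1.13 in the unstimulated cells of the 3 pairs and 1.81, 1.90 and 2.06 in the reactivated cells, without overlap. The difference was 2.60 ± 0.23, or 6.08-fold (limma adjusted p = 0.000404), and its second probe correlated with the first at r = 0.985 across the 24 arrays.

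The mitochondrial pair rose together. Hspd1 went from 0.27, 0.48 and -0.22 to 1.99, 2.28 and 2.34, a difference of 2.03 ± 0.19 (limma adjusted p = 0.000508). Hspe1 went from -0.16, -0.15 and -0.37 to 0.63, 0.85 and 1.00, a difference of 1.05 ± 0.15 (limma adjusted p = 0.00204). The rise of Hspe1 was smaller in each pair, although both genes lie on either side of the interval printed above. Hspe1 has 3 probes, of which the second followed the first (r = 0.99) and the third less so (r = 0.828). The third had a Cy5 range of 1.02 on the log2 scale, with slide means of 10.21, 10.75 and 10.83, against 0.34 for the brightest.

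Hsp90aa1 rose from 1.47, 1.36 and 0.80 to 2.33, 2.24 and 2.37 (1.10 ± 0.18, limma adjusted p = 0.00307), and the constitutive Hsp90ab1 from 0.79, 0.70 and 0.76 to 1.22, 1.15 and 1.42 (0.52 ± 0.13, limma adjusted p = 0.0147). Cryab rose slightly, from -0.05, -0.14 and -0.10 to 0.42, 0.80 and 0.31 (0.61 ± 0.15, limma adjusted p = 0.0164). The calls of Hsp90ab1 and Cryab were lost without the 24 hr pair (limma adjusted p = 0.0601 and 0.103), and that of Cryab also with median centring and with the mean of its probes (limma adjusted p = 0.0501 and 0.0566). Hspa1a (0.35 ± 0.18), Hspa8 (0.21 ± 0.18) and Dnajb1 (-0.28 ± 0.15) were not called, with limma adjusted p = 0.155, 0.367 and 0.154. Without the 6 hr Th1 pair Hspa1a was called higher, at 0.60 (limma adjusted p = 0.0361). Beside these changes the summed signal of the 5 T cell markers lay between 16.55 and 16.89 (log2) in unstimulated and between 15.77 and 16.13 in reactivated DMSO cells. That of 3 NK cell markers lay between 7.78 and 8.84 and between 9.94 and 10.52, with Eomes above background on 18 arrays of 24, Ncr1 and Klrb1c above background on 1 and 0 arrays of 24. Their part was not tested.

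Reactivation with Flavopiridol was compared in the 4 pairs formed by the 8 Flavopiridol arrays, and this fit, like that of the lower dose below, was added after the values were seen. Of 9 members 0 were called in either direction with limma, where 0.110% and 0.0183% of 10918 genes were called higher and lower, and 2491 genes had an unadjusted p under 0.05. Hsph1 differed by -0.15, 0.16, 0.03 and 0.21 on reactivation (Th1 and Th2 at 1 µM, then at 10 µM), an estimate of 0.06 ± 0.08. The estimates were -0.34 ± 0.11 for Hspd1, -0.21 ± 0.08 for Hspe1, 0.11 ± 0.08 for Hsp90aa1 and -0.10 ± 0.07 for Hsp90ab1 (limma adjusted p = 0.159, 0.18, 0.452 and 0.423). Cryab differed by 1.47, 2.63, 1.32 and 2.43 in the same order and Dnajb1 by 2.60, 4.51, 0.34 and 1.54, with the reactivated array higher in 4 of 4 pairs each. Hspa1a differed by 1.92 in Th1 cells at 1 µM. In the other pairs its unstimulated array was not well above background, and the reactivated array was at least 7.1-fold (Th2, 1 µM), 2.27-fold (Th1, 10 µM) and 3.08-fold (Th2, 10 µM) higher. The estimates for Cryab, Hspa1a and Dnajb1 were 1.97 ± 0.23, 2.00 ± 0.26 and 2.25 ± 0.60 (limma adjusted p = 0.0548, 0.0609 and 0.131), and that for Hspa1a takes the 3 dim arrays at their measured signal and is no exact size. Hspa1a and Cryab were called without the Th1 pair at 10 µM (limma adjusted p = 0.0283 and 0.0187) and without the Th2 pair at 1 µM (limma adjusted p = 0.011 and 0.0418). After the spike-in shift all 3 were called (limma adjusted p = 3.65e-09 for Cryab, 6.06e-09 for Hspa1a and 2.3e-05 for Dnajb1).

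**Figure D3:**
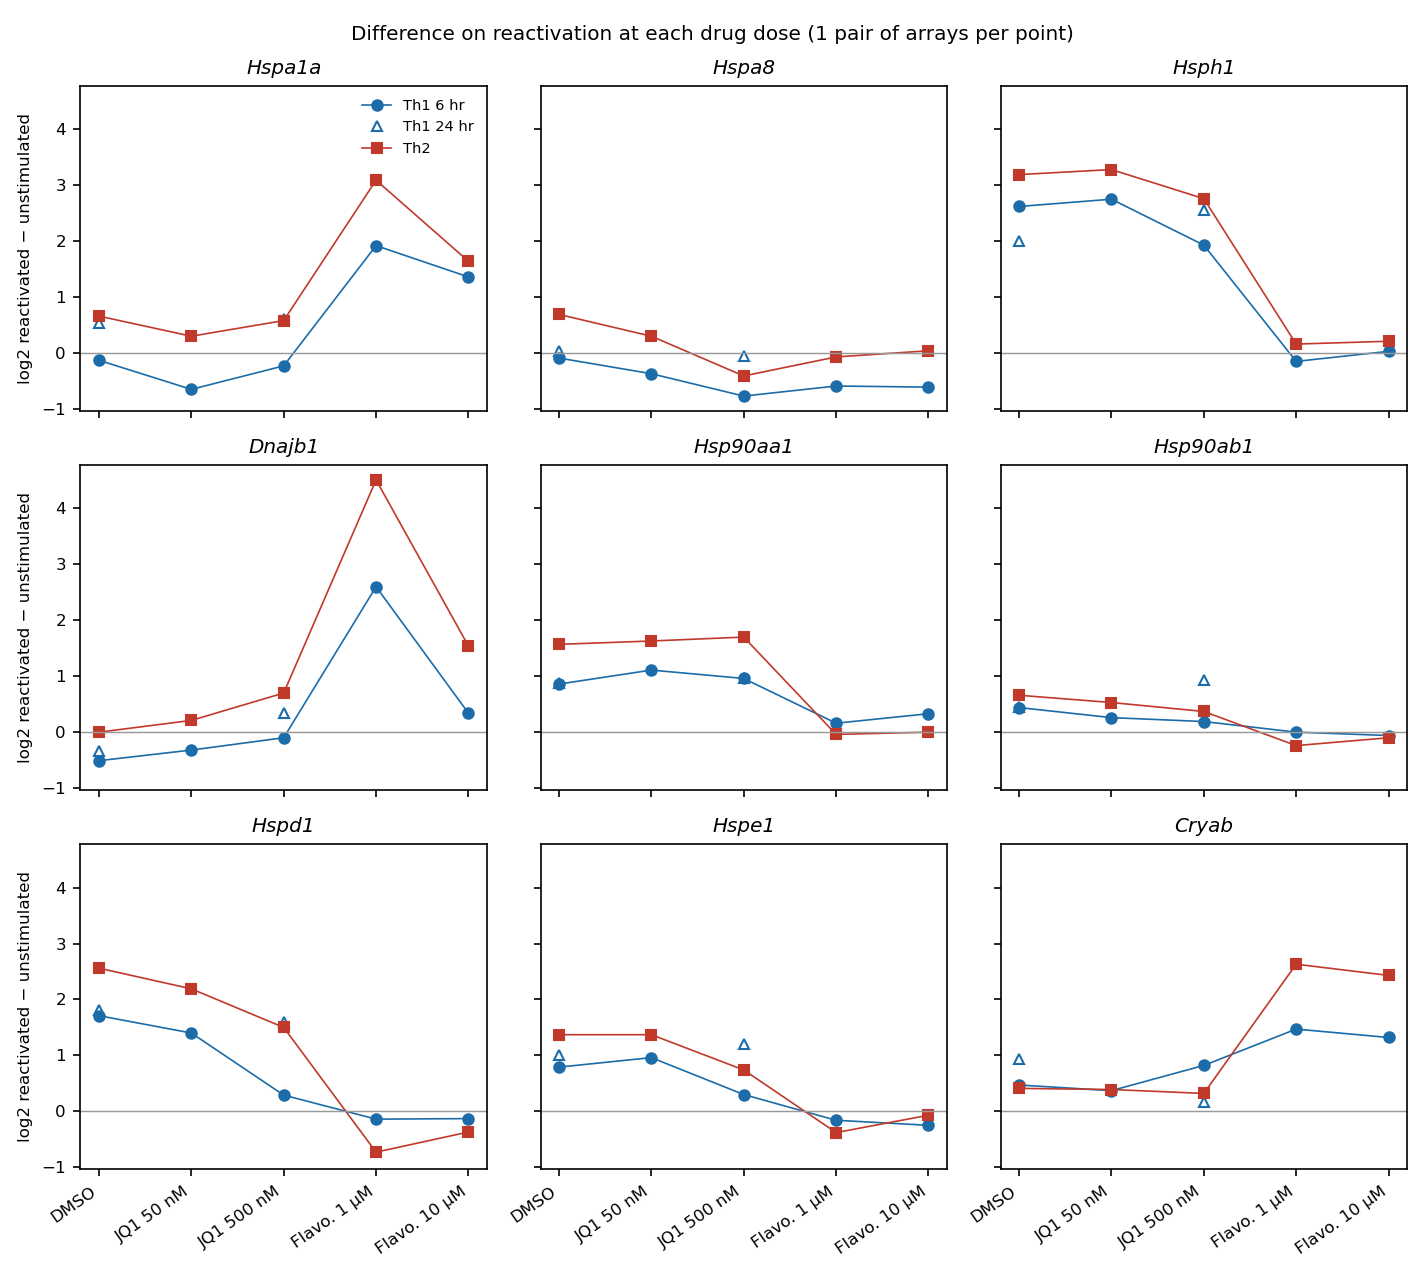
Log2 difference between the reactivated and the unstimulated array at each drug dose, 1 pair of arrays per point, for Th1 cells at 6 hr (circles), Th1 cells at 24 hr (triangles) and Th2 cells (squares), with lines joining doses of the same cell type. Hsph1 differed by 2.62 and 3.19 with DMSO and by 0.03 and 0.21 with 10 µM Flavopiridol in Th1 and Th2 cells, while Dnajb1 differed by -0.51 and 0.00 with DMSO and by 2.60 and 4.51 with 1 µM Flavopiridol.

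Whether the effect of Flavopiridol depended on reactivation was tested directly as an interaction. At 10 µM, 2 members had a lower effect in reactivated cells and 0 a higher one, where 6.94% of all genes were lower and 8.90% higher. These were Hsph1 (-2.78 ± 0.47, limma adjusted p = 0.0106) and Hspd1 (-2.39 ± 0.65, limma adjusted p = 0.0476), and the latter was lost in 7 of 11 alternatives, among them the authors' series table and the mean of probes. Cryab (1.44 ± 0.40) and Hspe1 (-1.24 ± 0.38) just missed the threshold (limma adjusted p = 0.0512 and 0.0669), and Hspa1a (1.24 ± 0.48) and Dnajb1 (1.19 ± 0.63) missed it (limma adjusted p = 0.133 and 0.256). For Hspa1a both unstimulated 10 µM arrays were not well above background.

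At 1 µM, 3 members had a higher effect in reactivated cells and 2 a lower one, where 8.65% and 7.77% of all genes did. The difference of effects was 3.81 ± 0.63 for Dnajb1, 2.24 ± 0.48 for Hspa1a and 1.61 ± 0.40 for Cryab (limma adjusted p = 0.0105, 0.0227 and 0.0349). The Hspa1a value includes the unstimulated Th2 array, which was not well above background, and is no exact size. The Cryab call was lost in 7 of 11 alternatives, with values down to 0.83 with the scanner ratio and 0.67 with the mean of probes (limma adjusted p = 0.266 and 0.155). It was -2.90 ± 0.47 for Hsph1 and -2.57 ± 0.65 for Hspd1 (limma adjusted p = 0.00939 and 0.0372). Median centring and the spike-in shift each left 0 of these calls at 10 µM and 1 at 1 µM, with estimates of the same sign.

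With 500 nM JQ1 for 6 hr, 4 of 9 members rose and 1 fell, where 17.7% of 12909 genes rose and 29.9% fell. For Th2 cells the control was the DMSO arrays of unsettled time, which lay on another slide. With DMSO alone, on different slides, Hspa1a at 24 hr differed from 6 hr by -0.70 in unstimulated and -0.04 in reactivated Th1 cells. In single pairs 4 of 36 member differences exceeded 2-fold, against 7.96% of all genes. Hspa1a rose by 1.16 ± 0.11, or 2.24-fold (limma adjusted p = 1.89e-05), from the DMSO levels above to 2.80 and 2.58 in unstimulated and reactivated Th1 cells and to 1.88 and 2.46 in Th2 cells, higher in 4 of 4 contexts.

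The other members that rose with 500 nM JQ1 were Dnajb1, Hsp90aa1 and Hsp90ab1. Dnajb1 was at 0.60 and 0.50 in Th1 and at 0.54 and 1.24 in Th2 cells, unstimulated and reactivated in turn, a difference of 0.63 ± 0.11 (limma adjusted p = 0.00121). Hsp90aa1 was at 1.93 and 2.90 in Th1 and at 1.34 and 3.04 in Th2 cells, a difference of 0.56 ± 0.07 (limma adjusted p = 0.000165). Hsp90ab1 differed by 0.32 ± 0.08 (limma adjusted p = 0.00925). All 3 were above DMSO in 4 of 4 contexts. These rises depended on the scaling. The spike-in shift, which moved the median of all genes from -0.07 to -0.52, left Hspa1a at 0.72 (limma adjusted p = 0.0505), Dnajb1 at 0.19, Hsp90aa1 at 0.12 and Hsp90ab1 at -0.12, and median centring kept the call of Hspa1a and none of the other rises. The call of Hsp90ab1 was lost or turned in 8 of 17 alternatives, among them Cy3 alone (0.19), the scanner ratio (0.26), the 2 doses alone (0.32), the Th1 contexts alone (0.43) and leaving out the unstimulated Th1 arrays (0.24), with limma adjusted p = 0.0979, 0.0558, 0.054, 0.063 and 0.0585. Beside these changes, all 5 T cell markers fell with 500 nM JQ1, with a median of -0.38, and their part was not tested.

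Hspe1 fell with 500 nM JQ1, by 0.46 ± 0.13 on the log2 scale (difference -0.46, limma adjusted p = 0.0131), and was below DMSO in 4 of 4 contexts. The call was lost in 5 of 19 alternatives, namely without the reactivated Th1 or the reactivated Th2 arrays (limma adjusted p = 0.0656 and 0.0789), with the scanner ratio (0.0511), with the Th1 contexts alone (0.0743) and without a block (0.581). The effect on the chaperonin pair and on Hspa8 differed with reactivation. In a test of that difference 3 members had a lower effect in reactivated cells and 0 a higher one, where 5.62% and 4.50% of all genes did. Hspd1 differed from DMSO by 0.49 and 0.30 in unstimulated Th1 and Th2 cells and by -0.94 and -0.76 in reactivated cells (interaction -1.24 ± 0.15, limma adjusted p = 0.00247). Hspa8 differed by 0.62 and 0.56 in unstimulated and by -0.06 and -0.55 in reactivated cells (-0.89 ± 0.17, limma adjusted p = 0.0132), and Hspe1 by -0.30 and -0.06, and by -0.80 and -0.68 (-0.56 ± 0.14, limma adjusted p = 0.0389). The Hspe1 call was lost in 4 of 13 alternatives, with limma adjusted p = 0.0687 at a normexp offset of 16, 0.0589 with the scanner ratio, 0.0605 with another of its probes and 0.671 without a block, and the Hspa8 call in 2 of 13, the scanner ratio and no block. Hsph1, whose rise on reactivation with 500 nM JQ1 was 1.93 in Th1 cells at 6 hr and 2.76 in Th2 cells, just missed the threshold of the interaction (-0.56 ± 0.16, limma adjusted p = 0.0516).

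At 50 nM JQ1, 0 members were called with limma, where 0.256% and 0.0852% of all genes were called higher and lower and 1701 genes had an unadjusted p under 0.05. In single pairs 0 of 36 member differences exceeded 2-fold, against 0.283% of all genes. Hspa1a had the largest estimate, 0.41 ± 0.11 (limma adjusted p = 0.145), higher in 4 of 4 contexts, and was called in the fit of the 50 nM and DMSO arrays alone (limma adjusted p = 0.0332). At 24 hr, in Th1 cells only, 500 nM JQ1 left Hspa1a 0.08 and 0.16 above DMSO in unstimulated and reactivated cells, against 1.07 and 0.97 at 6 hr. Dnajb1 was 0.62 and 1.31 above DMSO at 24 hr, the latter the 1 of 18 member differences past 2-fold, where 7.59% of all genes were. The Hsp90aa1 differences were 0.09 and 0.18, against 0.46 and 0.57 at 6 hr. The 24 hr values have no replicate and no test, and the naive reference signals of any 2 arrays differed with an SD of 0.18 over probes on the log2 scale (median over all pairs of arrays).

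**Figure D4:**
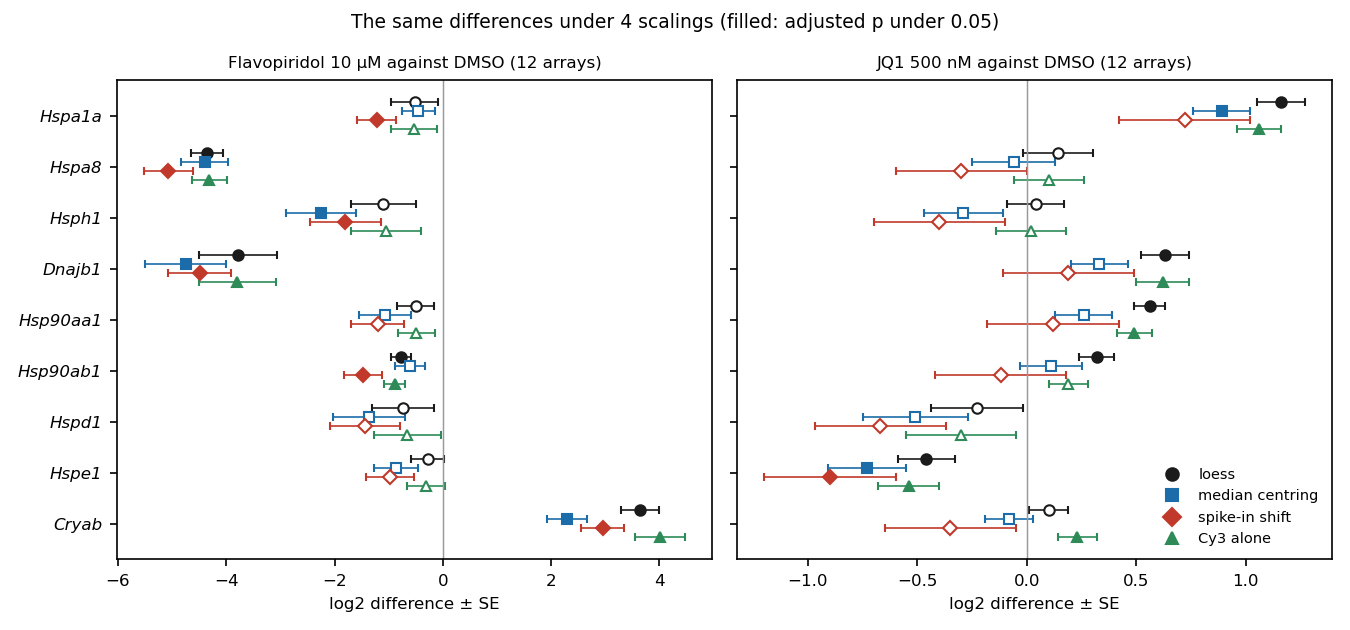
Log2 differences with standard errors for 10 µM Flavopiridol and 500 nM JQ1 under 4 scalings of the same arrays (filled points, adjusted p under 0.05). The Flavopiridol differences of Hspa8, Dnajb1 and Cryab are filled under all 4, while with JQ1 the difference of Hsp90ab1 runs from 0.32 after loess to -0.12 after the spike-in shift.

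Set against each other in 1 fit of 20 arrays, 10 µM Flavopiridol left 5 of 9 members lower and 1 higher than 500 nM JQ1, where 33.9% and 22.9% of 13111 genes were. Hspa8 (-4.51 ± 0.27), Dnajb1 (-4.42 ± 0.63), Hspa1a (-1.68 ± 0.46), Hsp90ab1 (-1.09 ± 0.15) and Hsp90aa1 (-1.05 ± 0.36) were lower, and Cryab (3.56 ± 0.36) was higher. Their limma adjusted p-values were 5.68e-09, 2.7e-05, 0.00562, 1.42e-05, 0.0204 and 8.65e-07. For Hspa1a both unstimulated Flavopiridol arrays were not well above background, so that its estimate is no exact size, and JQ1 was at least 6.02-fold (Th1) and 3.41-fold (Th2) higher there. The call of Hsp90aa1 was lost with the Th1 contexts alone (-0.44, limma adjusted p = 0.2) and without the reactivated Th1 or the unstimulated Th2 arrays (limma adjusted p = 0.0693 and 0.0686). It was also lost with only the 2 doses compared and without a block (limma adjusted p = 0.0635 and 0.128). Hsph1 was called lower without the unstimulated Th1 arrays (-1.63, limma adjusted p = 0.0379) and after median centring (-1.96, limma adjusted p = 0.0142).

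The effects in Th1 and Th2 cells were also compared. No member was called in the test of Flavopiridol in Th1 against Th2 cells with limma, where 0.0161% of all genes were lower and 0% higher, with 1608 genes at an unadjusted p under 0.05, and none with JQ1, where 0% were called either way and 906 genes had such a p. The closest member was Hspa8 with Flavopiridol, whose loss was smaller in Th1 cells (1.45 ± 0.34, limma adjusted p = 0.207), in both the unstimulated and the reactivated pair. All Th1 Flavopiridol arrays lay on one slide and all Th2 Flavopiridol arrays on another, so that cell type and slide cannot be told apart in this test. Between the 2 cell types given DMSO, on the same slide, the widest difference among the members was that of Hspa1a in unstimulated cells, 1.21 higher in Th1 (6 hr) than in Th2 cells, and in reactivated cells the members differed by -0.58 to 0.42. The unsettled time of the Th2 DMSO arrays bears on these differences.

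Among the 103 other genes of the chaperone network, grouped in 11 lists, 33 fell and 15 rose of 87 tested with 10 µM Flavopiridol. These shares were near the 33.5% and 15.4% over all genes, with a median of -0.36 against -0.22. Of the 6 genes listed as heat shock factors and their binding protein 3 could be tested, of which Hsbp1 rose and Hsf2 fell. Hsf1, the factor that binds heat shock elements, was at -0.07 ± 0.35 over the contexts (limma adjusted p = 0.883), and Hsf2 fell (-1.04 ± 0.30, limma adjusted p = 0.0188). The effect on Hsf1 differed with reactivation. It was lower in reactivated than in unstimulated cells at 10 µM (interaction -1.52 ± 0.27, limma adjusted p = 0.0121) and at 1 µM (-1.73 ± 0.27, limma adjusted p = 0.00813). Of 6 other HSP70 and HSP110 genes tested 5 fell, of 5 other heat shock factor targets 4 fell, and of 10 exchange factor and BAG genes 6 fell and 2 rose. Other lists did not go mainly down. Of 10 endoplasmic reticulum chaperones 4 rose and 3 fell, of 8 mitochondrial chaperones and proteases 3 rose and 2 fell, and of 6 prefoldin subunits 2 rose and 0 fell. Among the largest falls were those of the polyubiquitin gene Ubb (-3.98 ± 0.35), of Hspa5 (-3.91 ± 0.36), the HSP70 of the endoplasmic reticulum, of Bag5 (-2.96 ± 0.41), a nucleotide exchange factor, and of Gadd45b (-2.85 ± 0.54). The largest rises were those of Fkbp4 (1.64 ± 0.24), an HSP90 co-chaperone, Trap1 (1.31 ± 0.18), the mitochondrial HSP90, Hspbp1 (1.26 ± 0.24), Pdia4 (1.06 ± 0.36) and Canx (1.02 ± 0.20), which encodes calnexin.

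On reactivation without drug 44 of 86 tested genes of these lists rose and 11 fell, where 21.9% of all genes rose and 29.0% fell, with a median of 0.45 against -0.05 over all genes. Of the 9 subunits of the cytosolic chaperonin CCT 8 rose, with Cct3 at 1.47 ± 0.18, and 1, Cct6b, fell. Of 10 endoplasmic reticulum chaperones 7 rose, led by Hspa5 (2.32 ± 0.28), and of 10 exchange factor and BAG genes 7 rose, led by Bag5 (1.66 ± 0.16). Gadd45b (2.30 ± 0.50) and Hspa9 (2.17 ± 0.22), the mitochondrial HSP70 that feeds Hsp60, were the other large rises. Hsf1 rose by 1.34 ± 0.14 and Hsf2 by 0.76 ± 0.12 (limma adjusted p = 0.00068 and 0.00332). Hscb (-1.27 ± 0.15), Dnajb14 (-1.22 ± 0.13), Hspb6 (-1.03 ± 0.19), Dnaja4 (-0.89 ± 0.13) and Fkbp5 (-0.76 ± 0.17) had the largest falls.

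With 500 nM JQ1, 19 of 88 genes of the lists rose and 23 fell, shares near the 17.7% and 29.9% over all genes, with a median of -0.05 against -0.07. The J-domain list had 5 that rose, among them Dnajb6 (0.86 ± 0.09), and 1 that fell of 11, with a median of -0.17, below that of all genes. Of 6 prefoldin subunits 4 fell and 0 rose, and of 9 CCT subunits 3 fell, a share near that of all genes. The ubiquitin ligase Stub1, which takes clients from HSP70 to degradation, rose by 0.92 ± 0.12, Gadd45b by 0.79 ± 0.23, Calr by 0.65 ± 0.11 and Hspa4l by 0.58 ± 0.09. Bag2 (-1.08 ± 0.17), Hspa13 (-0.96 ± 0.08), Hspbp1 (-0.90 ± 0.08), Dnajc19 (-0.85 ± 0.11) and Hspa9 (-0.72 ± 0.11) fell the most. Hsf1 (-0.06 ± 0.08) and Hsf2 (0.24 ± 0.14) were not called (limma adjusted p = 0.535 and 0.2). In the test of JQ1 by reactivation 20 of 88 were lower and 0 higher, where 5.62% and 4.50% of all genes were, among them 6 of 9 CCT subunits, 6 of 10 endoplasmic reticulum chaperones and 5 of 16 HSP90 co-chaperones.

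Across the 24 arrays, genes with a pattern like each member were sought among 11815 genes measured on at least 12 arrays. The correlations describe arrays that share treatments and slides. Hspa8 was most like Sac3d1, Mrps23 and A430005L14Rik (r = 0.983, 0.983 and 0.981), Dnajb1 like Eya1, Sgsh and Hemgn (0.975, 0.974 and 0.973) and Cryab like Selenov, Rnu7 and Tcf7l2 (0.942, 0.94 and 0.937). Hsph1 was most like Eef1akmt4, Ddx21 and Crabp2 (0.984, 0.982 and 0.982), Hspd1 like Nolc1, Serbp1 and Cnbp (0.97, 0.963 and 0.961), and Hspe1 like C1qbp, Pno1 and Blmh (0.957, 0.952 and 0.946). Hsp90aa1 was like Cldnd1 (0.958) and Hsp90ab1 most like Ndfip1, Pithd1 and Mrps6 (0.96, 0.959 and 0.952). Hspa1a had the least close neighbours, Baiap2, Mt2 and Jun (0.86, 0.858 and 0.832), of which Mt2 is a metallothionein and Jun an immediate early gene. Among the members themselves the closest pair was Hsph1 and Hspd1 (r = 0.922), and Hspa8 and Cryab ran opposite (r = -0.91).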

How the data were processed

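The 24 arrays (62976 spots each) were two-colour Agilent mouse arrays. The deposited scanner files, made by the authors with Feature Extraction 10.7.1.1, give the median intensity of each spot and of its background and a log10 ratio. The series table deposited by the authors holds log2 ratios, which correlated with the values used here at r = 0.981 to 0.996 per array. Intensities were background corrected (normexp, offset 50), loess normalized within arrays and averaged per probe. A gene was represented by its brightest probe and entered a fit if that probe was well above background in Cy3 on at least 3 arrays. Cell type and stimulation formed the block in limma 3.58.1 (R 4.3.3), and a call is an adjusted p under 0.05. Alternatives were median centring without loess, a shift by 350 spike-in spots, Cy3 alone, the authors' scanner and series ratios, other probe rules, filters and blocks, and leaving out contexts.

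The members and lists were chosen with earlier results of these data known. The reactivation fit with Flavopiridol and the 1 µM interaction were added after the values were seen. Outside the members, the text names up to 5 list genes with the largest called change in each direction, Hsf1 and Hsf2, and, of genes most like a member, the first 3 by Pearson's r. Promoter windows came from RefSeq (GRCm38.p6). No array had a replicate, and the number of arrays limits the precision. Some genes that these rules would name are not reported here.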

Additional observations from a re-analysis of the deposited data

Results flagged for a closer look

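In each of the following the effect of a drug differed between reactivated and unstimulated cells in a limma interaction test, and values are differences of log2 effects. With 10 µM Flavopiridol the effect was lower in reactivated cells for Hsph1 (-2.78) and Hspd1 (-2.39). With 1 µM Flavopiridol it was lower for Hsph1 (-2.90) and Hspd1 (-2.57), and higher for Dnajb1 (3.81), Hspa1a (2.24) and Cryab (1.61), in a fit added after the values were seen. The Hspa1a value includes an array not well above background and is no exact size, and the Cryab call was lost in 7 of 11 alternatives, as was that of Hspd1 at 10 µM. Hspd1 at 1 µM was lost in 5 of 11, and Hspa1a at 1 µM in 4 of 11. With 500 nM JQ1 it was lower for Hspd1 (-1.24), Hspa8 (-0.89) and Hspe1 (-0.56), calls lost in 1 of 11, 2 of 13 and 4 of 13 alternatives.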

How the results depend on the processing

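No pairing of arrays by replicate was possible because the labels give no replicate numbers. Arrays were instead matched by condition, and the blocks fitted were cell type with stimulation, or cell type with time or dose. Over 179 alternatives the number of members called stayed within 1.5 times the reported one in 146, and of 1581 single effects 1389 kept their direction and side of the threshold. Hspa8, Dnajb1 and Cryab with Flavopiridol at either dose, and Hsph1, Hsp90aa1, Hspd1 and Hspe1 on reactivation, kept their calls under all alternatives run. With 500 nM JQ1 the 5 called members became 2 after median centring, 1 after the spike-in shift, 0 without the context block and 3 in Th1 cells alone, and at 50 nM 1 was called with only those doses fitted. For 10 µM Flavopiridol by reactivation the 2 calls became 0 after median centring, the spike-in shift or no block, 1 with the scanner ratio or no filter, 4 on Cy3 alone and 6 with slide as a random block. For 1 µM the 5 became 1 after median centring or the spike-in shift, 2 with the scanner ratio, 3 with no filter, 0 with no block and 8 with the slide block. For JQ1 by reactivation the 3 became 8 after the spike-in shift, 5 on Cy3 alone, with the mean of probes or with the slide block, 1 with the scanner ratio and 0 with no block. Reactivation with Flavopiridol (0 called) gave 2 after median centring, 3 after the spike-in shift and 1 with the series table or the mean of probes. The spike-in shift also called 1 member for Flavopiridol in Th1 against Th2 cells (Hspa8, 2.36, limma adjusted p = 0.0466), and put 10 single JQ1 differences past 2-fold at 500 nM and 1 at 50 nM. It reversed Hsp90ab1 with 500 nM JQ1 (-0.12) and, for JQ1 by reactivation, Hsp90aa1 (-1.05) and Cryab (-1.03). Leaving out 1 context or pair gave 3 to 4 calls at either Flavopiridol dose, 4 to 5 with 500 nM and 0 with 50 nM JQ1, 5 to 7 for Flavopiridol against JQ1, 4 to 7 for reactivation and 0 to 2 for reactivation with Flavopiridol. The share of higher among all called genes was 31.4% at 10 µM Flavopiridol and 3.31% and 3.69% after median centring and the spike-in shift, 37.1%, 11.2% and 3.45% with 500 nM JQ1, and 43%, 36.9% and 59.8% on reactivation. The causes were not tested. The slide block could not be estimated on reactivation, where pairs already lay within slides. There it could not change a call, but it is counted among the alternatives above.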
